A study of Mus musculus with 6 samples.

Results

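The 7 genes described here, *Hmgcs1*, *Sqle*, *Fdft1*, *Lss*, *Cyp51*, *Dhcr7* and *Insig1*, were taken by symbol from the 50508 gene symbols listed for each library. Of these, 6 code for enzymes that make cholesterol, and *Insig1* codes for a protein that holds back their transcription when sterol is plentiful. None of the 7 codes for a receptor that takes up cholesterol, so the uptake genes are given from a separate list. RNA was sequenced from primary mouse neurons transduced with lentivirus, with 3 libraries from cultures given a guide against the bacterial gene LacZ (sgLacZ, Ctrl-dCas9A, the controls below) and 3 from cultures given a guide against the promoter of the potassium channel gene *Kcna1* (sgKcna1, Kcna1-dCas9A). Both groups carried the same nuclease-dead Cas9 fused to the activator VP160 under the Ef1alpha promoter, which is active in most cell types, and the groups differed in the guide. The labels name hippocampus, whereas the study's text names cortical neurons of C57Bl/6J pups. The study speaks in general of independent repetitions, but neither the labels nor its RNA-seq methods say whether the 3 libraries of a group came from separate cultures, so p-values measure the spread between these libraries, which may be technical.

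Cholesterol is built from acetyl-CoA. The first enzymes lead through HMG-CoA into mevalonate, kinases and a decarboxylase turn mevalonate into isoprenoid units, these units are joined into squalene, squalene is closed into lanosterol, and lanosterol is trimmed stepwise into cholesterol. Transcription of these genes is driven by SREBP-2, which is held in the endoplasmic reticulum by SCAP and INSIG proteins while sterol is high, is cut loose in the Golgi when sterol is low, and binds sterol regulatory elements near its targets, often together with NF-Y at CCAAT boxes. The brain makes nearly all of its own cholesterol, since lipoproteins do not cross the blood-brain barrier, and astrocytes pass part of theirs to neurons in particles that carry APOE.

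The promoters of 4 genes are shown because the values below turn on them: *Hmgcs1* and *Insig1* among the 7, and *Mvd* and *Hsd17b7* among the other enzymes. Each window runs from 250 bases before to 50 bases after a transcription start, 5′ to 3′ on the strand of the gene, taken from RefSeq on GRCm38.p6. It lies at chr13:119690101-119690400 on the plus strand for *Hmgcs1*, at chr5:28071162-28071461 on the plus strand for *Insig1*, at chr8:122443373-122443672 on the minus strand for *Mvd* and at chr1:169969156-169969455 on the minus strand for *Hsd17b7*. Capitals mark the letters of 3 motifs searched on both strands, TCACNCCAC (a form of the sterol regulatory element), CCAAT (read as ATTGG on the other strand) and CACGTG (an E-box).
Hmgcs1: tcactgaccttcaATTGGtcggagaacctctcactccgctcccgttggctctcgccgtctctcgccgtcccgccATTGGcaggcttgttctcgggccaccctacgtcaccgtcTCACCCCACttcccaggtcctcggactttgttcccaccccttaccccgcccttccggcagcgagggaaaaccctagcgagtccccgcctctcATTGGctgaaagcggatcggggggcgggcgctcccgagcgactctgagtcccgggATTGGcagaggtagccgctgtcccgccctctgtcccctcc
Insig1: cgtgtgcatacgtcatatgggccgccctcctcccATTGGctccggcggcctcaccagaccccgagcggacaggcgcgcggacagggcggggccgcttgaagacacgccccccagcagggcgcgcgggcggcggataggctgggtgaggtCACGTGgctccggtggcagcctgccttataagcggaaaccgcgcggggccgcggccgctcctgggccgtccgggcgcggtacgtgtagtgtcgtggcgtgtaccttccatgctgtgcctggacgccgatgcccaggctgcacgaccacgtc
Mvd: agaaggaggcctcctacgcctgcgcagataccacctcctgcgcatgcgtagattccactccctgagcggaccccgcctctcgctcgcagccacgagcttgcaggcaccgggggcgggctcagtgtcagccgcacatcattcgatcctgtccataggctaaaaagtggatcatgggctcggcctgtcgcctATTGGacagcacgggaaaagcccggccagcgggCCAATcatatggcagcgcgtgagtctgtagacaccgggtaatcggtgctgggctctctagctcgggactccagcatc
Hsd17b7: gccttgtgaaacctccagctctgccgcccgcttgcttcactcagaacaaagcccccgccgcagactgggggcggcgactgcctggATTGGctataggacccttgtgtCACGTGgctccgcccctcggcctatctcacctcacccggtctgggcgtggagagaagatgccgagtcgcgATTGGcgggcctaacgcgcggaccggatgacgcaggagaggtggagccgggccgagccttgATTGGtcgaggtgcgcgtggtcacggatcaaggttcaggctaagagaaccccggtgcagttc

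Among 32851 promoter windows of this length, 1.24% held TCACNCCAC, 37.4% held CCAAT and 7.15% held CACGTG. Of the 7 genes, 5 had a window, *Sqle* and *Fdft1* having none here. TCACNCCAC was found in 1 of these 5 genes, in *Hmgcs1*, where it starts at base 114 of the window. These 5 genes have 7 windows, of which 1 held TCACNCCAC, 5 held CCAAT and 2, at starts of *Insig1* and *Dhcr7*, held CACGTG. Of the other 17 synthesis enzymes, 14 had 15 windows, of which 0 held TCACNCCAC, 12 held CCAAT and 2 held CACGTG. A match of letters is a description and not a binding site.

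The deposited value of a gene is a whole number, and the values of a library sum to between 999047 and 999717, so they were taken to be CPM, reads of a gene relative to a common total for the library, rounded by the authors. How many reads they rest on is unknown, and no interval for counting error can be given. Between 14788 and 15417 genes were above 0 in a library, and a single transcript, Gm42418, held from 15.3% to 20.2% of the values. *Kcna1* was at 16, 16 and 16 in the controls and at 68, 47 and 65 in Kcna1-dCas9A. It rose by 1.83 on the log2 scale (SE 0.16, adjusted p = 0.034, limma), as the labels imply, and when 1 library at a time was left out its adjusted p lay between 0.0186 and 0.143.

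In neurons with the *Kcna1* guide the 7 genes did not move as a block. *Hmgcs1*, at the entry of the pathway, was lower in every Kcna1-dCas9A library (mean 1101 beside 1538), *Sqle* was higher in every one (213 beside 174), *Insig1* had a lower mean (12.7 beside 29.7) with 1 control library at the level of the other group, and *Fdft1*, *Lss*, *Cyp51* and *Dhcr7* overlapped between the groups. None of these differences passed the threshold across all genes. Summed astrocyte markers ran lower as well (672 to 698 beside 925 to 1037 in the controls), and their part in these values was not tested.

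The comparison asked which transcripts differ between neurons with an activated *Kcna1* promoter and neurons with the control guide. Differences are given as Kcna1-dCas9A minus Ctrl-dCas9A on the scale of log2(value + 1), which understates the change of low genes, and were tested with limma across all 19504 genes above 0 in at least 1 library, with Benjamini-Hochberg adjustment. In this fit 226 genes passed an adjusted p of 0.05 (1.16% of those tested), 68 higher and 158 lower. Of the 7 genes, 0 passed. At an unadjusted p under 0.05 there were 3, *Sqle* higher and *Hmgcs1* and *Insig1* lower, beside 1870 higher (9.59%) and 2659 lower (13.6%) among all genes tested, the shares against which such counts of the lists below are to be read. The median log2 difference of the 7 was -0.20, beside -0.02 over all genes tested and -0.06 over genes with a mean of at least 10.

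How many genes pass differed with the low genes kept in the fit and with other settings, and the reason was not tested. All 7 genes have a mean over the 6 libraries of at least 10, and in a fit on the 8050 genes at that level, 2289 passed (28.4%), 921 higher and 1368 lower. There *Hmgcs1* and *Insig1* passed, both lower, 2 of 7 beside that 28.4%. After scaling by median-of-ratios factors, which moved the median of all genes from -0.02 to 0.02 and that of the 7 from -0.20 to -0.12, 8.81% of all genes tested passed, 962 higher and 757 lower, and 0 of the 7 did. Without Ctrl-dCas9A replicate 3, 2711 genes passed, and without any other library 0 did. Among genes with a mean of at least 10, the 3 libraries of 1 group lay wholly below the 3 of the other in 23.9% (Kcna1-dCas9A lower) and wholly above in 15.9% (Kcna1-dCas9A higher). Of the 7 genes, *Hmgcs1* was wholly lower and *Sqle* wholly higher.

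**Figure D1:**
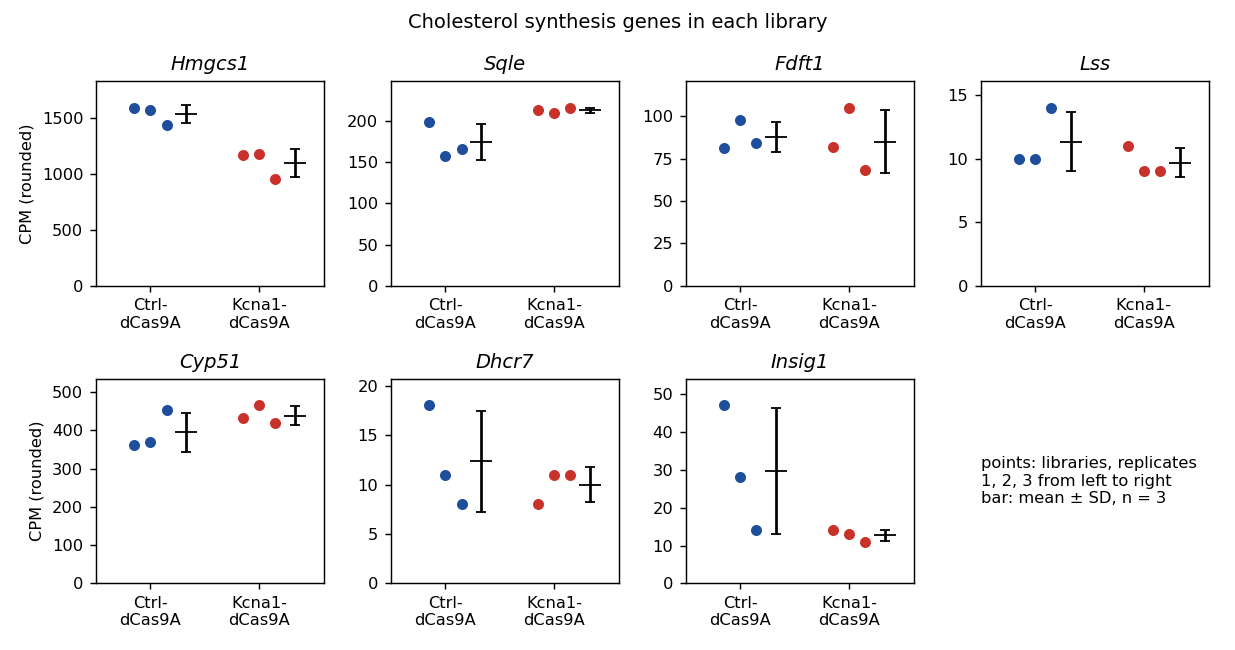
Deposited values (CPM, rounded) of the 7 genes in each library, on linear axes from 0 (points are replicates 1, 2 and 3 from left to right, the line and bar are the mean and SD, n = 3 per group). The Kcna1-dCas9A libraries lie between 952 and 1181 for *Hmgcs1*, below all Ctrl-dCas9A libraries (1444 to 1595), and between 209 and 216 for *Sqle*, above all of them (158 to 199), while the groups of the other 5 genes overlap or touch.

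*Hmgcs1* codes for the cytosolic HMG-CoA synthase, which makes HMG-CoA at the entry of the pathway, and lies on chromosome 13 from 119690351 to 119708260 (GRCm38.p6). It was at 1595, 1575 and 1444 in the controls (1538 ± 82.0, SD, n = 3) and at 1169, 1181 and 952 in Kcna1-dCas9A (1101 ± 129). Every Kcna1-dCas9A library was below every Ctrl-dCas9A library, and replicate 3 was the lowest of its group in both. The log2 difference was -0.49 (SE 0.11, 95% interval -0.75 to -0.23), with an adjusted p of 0.056 across all genes tested and 0.010 among genes with a mean of at least 10 (limma). A two-sided exact permutation test over the 6 libraries gave p = 0.1, the smallest that 3 against 3 allows. When 1 library at a time was left out, the log2 difference lay between -0.54 and -0.39, and the adjusted p was under 0.05 without Ctrl-dCas9A replicate 3 (0.047) and in no other case.

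*Fdft1* codes for squalene synthase, which joins farnesyl units into squalene, and lies on chromosome 14 from 63145150 to 63181687. Its annotated span overlaps *Ctsb*, and whether the counting used strand is not given in the sources used here. It was at 81, 98 and 84 in the controls and at 82, 105 and 68 in Kcna1-dCas9A, so both the highest and the lowest library were Kcna1-dCas9A. The log2 difference was -0.06 (SE 0.17, 95% interval -0.47 to 0.34, adjusted p = 0.84, limma), and its sign turned under other scalings (0.03 with median-of-ratios factors).

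*Sqle* codes for squalene epoxidase, a rate-limiting oxygenase after squalene, and lies on chromosome 15 from 59315092 to 59331193. It was at 199, 158 and 166 in the controls (174 ± 21.7, n = 3) and at 213, 209 and 216 in Kcna1-dCas9A (213 ± 3.51). All Kcna1-dCas9A libraries were higher than all Ctrl-dCas9A libraries, the nearest pair being Ctrl-dCas9A replicate 1 and Kcna1-dCas9A replicate 2. The log2 difference was 0.29 (SE 0.11, 95% interval 0.04 to 0.55), with an adjusted p of 0.16 across all genes tested and 0.088 among genes with a mean of at least 10 (limma), and an exact permutation p of 0.1. It lay between 0.23 and 0.39 when 1 library at a time was left out.

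*Lss* codes for lanosterol synthase, which closes the rings of the sterol, and lies on chromosome 10 from 76531565 to 76557139, where its span overlaps 4930483K19Rik. It was at 10, 10 and 14 in the controls and at 11, 9 and 9 in Kcna1-dCas9A, and the groups overlapped. At this level the rounding to whole numbers is coarse beside the differences. The difference was -0.20 (SE 0.20, 95% interval -0.67 to 0.27, adjusted p = 0.52, limma).

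*Cyp51* codes for the lanosterol demethylase, the first enzyme after lanosterol, and lies on chromosome 5 from 4080674 to 4104697. It was at 361, 369 and 454 in the controls (395 ± 51.5, n = 3) and at 433, 465 and 418 in Kcna1-dCas9A (439 ± 24.0). Ctrl-dCas9A replicate 3 lay within the range of the Kcna1-dCas9A libraries, and the other two controls lay below it. On the log2 scale the difference was 0.16 (SE 0.11, 95% interval -0.11 to 0.42, adjusted p = 0.46, limma).

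*Dhcr7* codes for the reductase of the last step on one branch to cholesterol and lies on chromosome 7 from 143823167 to 143848410. It was at 18, 11 and 8 in the controls and at 8, 11 and 11 in Kcna1-dCas9A, and the control libraries spanned the whole range of the other group. Its log2 difference was -0.22 (SE 0.30, 95% interval -0.93 to 0.48, adjusted p = 0.63, limma), and it became 0.07 without Ctrl-dCas9A replicate 1. For *Fdft1*, *Lss*, *Cyp51* and *Dhcr7* these intervals are the limit of what 3 libraries per group can show.

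*Insig1* codes for the endoplasmic reticulum anchor of SCAP, is itself a target of SREBP, and lies on chromosome 5 from 28071412 to 28078662, where its span overlaps Gm35223. It was at 47, 28 and 14 in the controls (29.7 ± 16.6, n = 3) and at 14, 13 and 11 in Kcna1-dCas9A (12.7 ± 1.53). Ctrl-dCas9A replicate 3 was equal to the highest Kcna1-dCas9A library, and the other two controls were above all of them. The log2 difference was -1.02 (SE 0.39, 95% interval -1.95 to -0.09), with an adjusted p of 0.18 across all genes tested and 0.026 among genes with a mean of at least 10 (limma), and an exact permutation p of 0.2. It was -0.62 without Ctrl-dCas9A replicate 1 and -1.46 without Ctrl-dCas9A replicate 3, with an adjusted p of 0.033 in the latter case.

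The 7 values summed to 2311, 2249 and 2184 in the controls and to 1930, 1993 and 1685 in Kcna1-dCas9A. The share of this sum held by a gene does not depend on how a library was scaled. *Hmgcs1* held 69.0%, 70.0% and 66.1% of it in the controls and 60.6%, 59.3% and 56.5% in Kcna1-dCas9A. *Sqle* held 8.61%, 7.03% and 7.60%, then 11.0%, 10.5% and 12.8%. *Cyp51* held 15.6%, 16.4% and 20.8%, then 22.4%, 23.3% and 24.8%. The share of *Hmgcs1* was thus lower in every Kcna1-dCas9A library than in any Ctrl-dCas9A library, and those of *Sqle* and *Cyp51* were higher. Since shares of 1 sum move against each other, these are a single pattern.

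**Figure D2:**
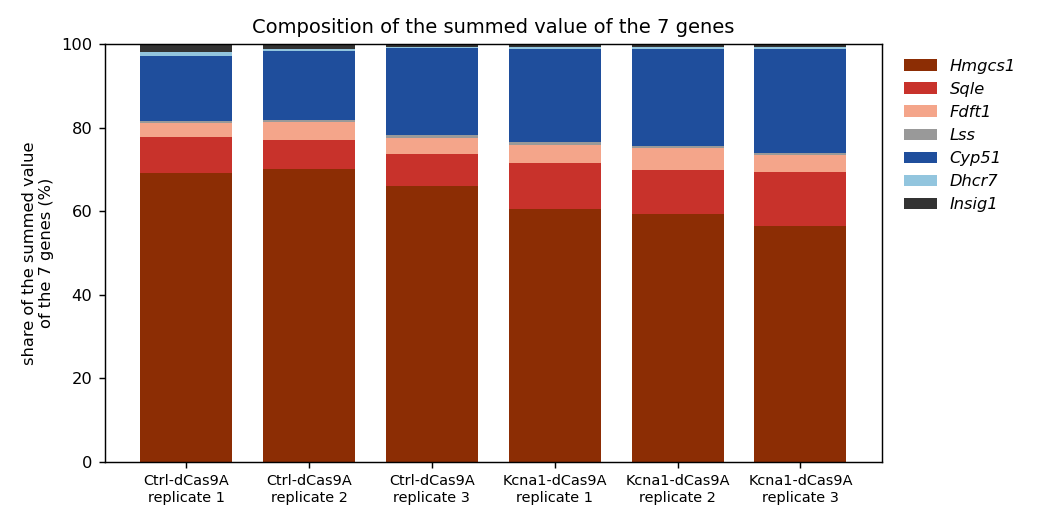
Share of the summed value of the 7 genes held by each gene, in percent, for each of the 6 libraries. *Hmgcs1* holds from 66.1% to 70.0% in the controls and from 56.5% to 60.6% in Kcna1-dCas9A, and *Sqle* and *Cyp51* hold more in every Kcna1-dCas9A library.

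The other enzymes of the pathway, 17 genes, were all tested. Of these, *Mvd* rose, *Hsd17b7* fell and 15 did not pass (limma). This is 2 of 17, beside 1.16% of all genes. In the fit on genes with a mean of at least 10, 5 of 16 passed higher and 3 lower, beside its 28.4%. The median log2 difference of the 17 was -0.11, and 8 lay above 0 and 9 below.

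*Mvd*, the decarboxylase that makes isopentenyl diphosphate from mevalonate, was at 126, 125 and 221 in the controls (157 ± 55.1, n = 3) and at 400, 351 and 444 in Kcna1-dCas9A (398 ± 46.5). All Kcna1-dCas9A libraries were higher, and Ctrl-dCas9A replicate 3 lay nearest to them. It rose by 1.38 on the log2 scale (SE 0.23, adjusted p = 0.0496, limma). *Hsd17b7*, a ketosteroid reductase that acts on sterols after lanosterol, was at 51, 57 and 47 in the controls (51.7 ± 5.03, n = 3) and at 31, 32 and 32 in Kcna1-dCas9A (31.7 ± 0.577). It fell by 0.68 on the log2 scale (SE 0.12, adjusted p = 0.0497, limma), with no overlap between the groups. Both calls were narrow. When 1 library at a time was left out, the adjusted p lay between 0.0174 and 0.166 for *Mvd* and between 0.0208 and 0.143 for *Hsd17b7*, and among these fits either passed only without Ctrl-dCas9A replicate 3. Neither passed in limma without the intensity trend of the variance.

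The enzymes around *Mvd* in the pathway had values on the same side apart from *Idi1*, the isomerase that follows it, which was at 1 to 4 in every library. *Fdps*, which makes farnesyl diphosphate, was at 23, 28 and 43 in the controls and at 72, 60 and 90 in Kcna1-dCas9A (log2 difference 1.24, SE 0.25, adjusted p = 0.056, limma). The kinases of mevalonate were chosen for mention after their values were seen. *Pmvk* was at 93, 69 and 104, then at 155, 137 and 201 (0.88, SE 0.20, adjusted p = 0.056), and *Mvk* at 30, 25 and 28, then at 39, 43 and 36 (0.49, SE 0.13, adjusted p = 0.077). The groups did not overlap in any of these 3 genes, and in the fit on genes with a mean of at least 10 their adjusted p were 0.00145, 0.00262 and 0.0367 (limma). Since they were named for their values, nothing is read from how many of them passed. *Ebp*, the sterol isomerase, also chosen after its value was seen, was at 26, 23 and 45, then at 45, 49 and 67, and Ctrl-dCas9A replicate 3 was equal to the lowest Kcna1-dCas9A library.

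*Tm7sf2*, a sterol reductase and the lowest of the 17 by log2 difference, was at 20, 20 and 13 in the controls and at 13, 9 and 6 in Kcna1-dCas9A (log2 difference -0.89, SE 0.30, adjusted p = 0.13, limma), and Ctrl-dCas9A replicate 3 was equal to Kcna1-dCas9A replicate 1. Summed over the 7 genes and the other 17, the values were 3733, 3612 and 3560 in the controls and 3538, 3626 and 3437 in Kcna1-dCas9A, so the totals of the groups overlapped while single steps lay apart in both directions.

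**Figure D3:**
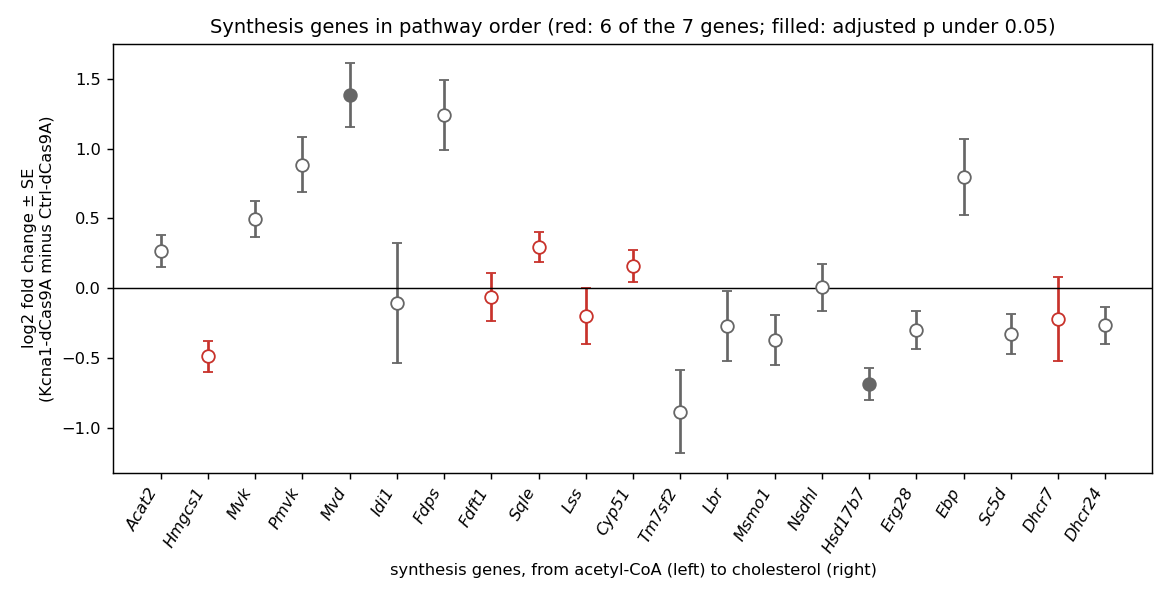
Log2 difference (Kcna1-dCas9A minus Ctrl-dCas9A, scale of log2(value + 1)) of synthesis enzymes in the order of the pathway, with bars of ± 1 SE from limma and filled points for an adjusted p under 0.05. Red points are the enzymes among the 7 genes, and *Insig1* is not shown. The steps from *Mvk* to *Fdps* lie above 0 apart from *Idi1*, *Hmgcs1* lies below 0, and *Mvd* and *Hsd17b7* pass the threshold.

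Of the 12 genes of sterol sensing and SREBP control, 0 passed in limma, with 2 higher and 4 lower at an unadjusted p under 0.05, beside 9.59% and 13.6% of all genes tested, and their median log2 difference was -0.23. *Srebf2*, which codes for SREBP-2, was at 147, 155 and 167 in the controls and at 212, 154 and 219 in Kcna1-dCas9A (0.30, SE 0.15, adjusted p = 0.27). Kcna1-dCas9A replicate 2 lay within the control range and the other two above it. *Srebf1*, the lowest of the list by log2 difference, had values near 0. It was at 10, 6 and 5 in the controls and at 2, 3 and 2 in Kcna1-dCas9A (-1.23, SE 0.30, adjusted p = 0.067, limma). *Insig2*, the partner of *Insig1*, was at 15, 12 and 21, then at 28, 21 and 24 (0.60, adjusted p = 0.16), so its values lay on the other side from those of *Insig1*.

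*Pgrmc1*, a heme-binding protein of the endoplasmic reticulum, was at 75, 88 and 62 in the controls and at 42, 46 and 51 in Kcna1-dCas9A (-0.67, SE 0.15, adjusted p = 0.056). Its relative *Pgrmc2* was at 175, 207 and 288, then at 311, 283 and 286 (0.42, adjusted p = 0.21). *Mbtps2*, the protease that makes the final cut of SREBP, was at 22, 20 and 17, then at 14, 10 and 10 (-0.75, SE 0.19, adjusted p = 0.071). In the fit on genes with a mean of at least 10, *Pgrmc1* and *Mbtps2* passed, both lower, 2 of 11 beside 28.4%. The groups were wholly apart in 5 of the 12 genes, all lower, beside 13.3% lower and 8.98% higher among all genes tested. Among genes with a mean of at least 10, as 11 of the 12 are, those shares are 23.9% and 15.9%.

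For uptake and release from the lysosome, 18 genes were listed, of which 17 were above 0 in at least 1 library, and 0 of these passed in limma, with 2 higher and 0 lower at an unadjusted p under 0.05, beside 9.59% and 13.6%. Their log2 differences ran from -0.72 to 0.68 with a median of -0.12, and 0 of 11 passed in the fit on genes with a mean of at least 10. *Vldlr*, the receptor of very low-density lipoprotein, was at 51, 35 and 35 in the controls and at 33, 29 and 36 in Kcna1-dCas9A (-0.28, adjusted p = 0.41). *Npc2*, which hands cholesterol on in the lysosome, was at 346, 323 and 324, then at 359, 385 and 462 (0.27, adjusted p = 0.20), and *Gramd1a*, a sterol carrier at membrane contacts, at 96, 89 and 98, then at 108, 110 and 116 (0.24, adjusted p = 0.17). In both, named as the highest of the list, the groups lay wholly apart. *Stard3*, a carrier of cholesterol out of late endosomes, was at 12, 19 and 14, then at 11, 15 and 8.

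Of the 16 genes of efflux, storage and turnover, *Cyp27a1* and *Ch25h* were listed at 0, and 0 of the other 14 passed in limma, with 1 higher and 3 lower at an unadjusted p under 0.05, beside 9.59% and 13.6%, and a median log2 difference of -0.29. *Apoe*, the main apolipoprotein of brain, was at 217, 199 and 249 in the controls and at 214, 204 and 241 in Kcna1-dCas9A (-0.01, SE 0.12, adjusted p = 0.995). *Cyp46a1*, the neuronal hydroxylase that clears cholesterol from brain, was at 8, 13 and 14, then at 17, 20 and 17 (0.62, adjusted p = 0.16). *Abca1*, the exporter of cholesterol to lipoproteins, was at 19, 13 and 16, then at 10, 13 and 11 (-0.45, adjusted p = 0.22). *Soat1*, which makes cholesterol esters, was at 27, 24 and 24, then at 20, 17 and 17 (-0.45, adjusted p = 0.10). *Cyp46a1* lay wholly higher and *Soat1* wholly lower, *Abca1* touched, and *Apoe* overlapped.

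SREBP proteins also drive fatty acid synthesis. Of 14 such genes, 0 passed in limma, with 4 higher and 6 lower at an unadjusted p under 0.05, beside 9.59% and 13.6%, and the same numbers of genes passed in the fit on genes with a mean of at least 10, 4 higher and 6 lower of 13, beside its 28.4%. *Scd2*, the main desaturase of brain, was at 817, 799 and 582 in the controls and at 466, 357 and 416 in Kcna1-dCas9A (-0.82, SE 0.16, adjusted p = 0.055). *Me1*, the malic enzyme that supplies NADPH, was at 29, 37 and 37, then at 23, 18 and 16 (-0.83, adjusted p = 0.056). *Pnpla3*, a lipase, was at 14, 9 and 12, then at 22, 25 and 26 (1.02, adjusted p = 0.053), and *Fads2*, a desaturase of long fatty acids, at 14, 13 and 23, then at 29, 25 and 38 (0.86, adjusted p = 0.098). Over the whole list the groups were wholly apart in 4 genes higher and 6 lower of 14, beside 8.98% and 13.3% of all genes tested. Among genes with a mean of at least 10, as 13 of the 14 are, those shares are 15.9% and 23.9%. The list held values in both directions, as the cholesterol synthesis genes did.

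**Figure D4:**
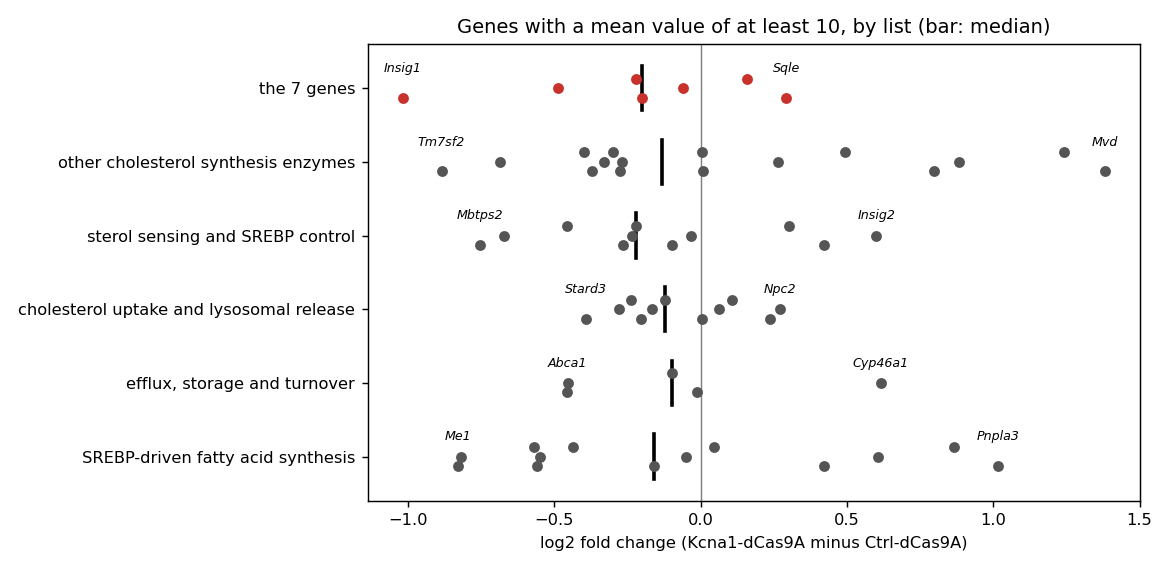
Log2 differences (Kcna1-dCas9A minus Ctrl-dCas9A, scale of log2(value + 1)) of the genes with a mean of at least 10 among the 7 genes and the 5 other lists, 1 point per gene, with a bar at the median of each list. The medians lie between -0.22 and -0.10, beside -0.06 over all genes at that level, and points lie on both sides of 0 in every list.

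Markers of cell types moved with the groups, and in RNA of whole cultures fewer cells of a type and less RNA per cell cannot be told apart. Of 10 astrocyte markers, 9 were tested and *Aqp4*, *Aldoc* and *Sox9* fell, *Gjb6* being listed at 0, and 0 were higher and 6 lower at an unadjusted p under 0.05. The other 3 did not follow, *Gfap* at 63, 45 and 57, then at 46, 48 and 70, *Aldh1l1* at 11, 12 and 5, then at 6, 11 and 10, and *S100b* at 3, 6 and 8, then at 6, 9 and 6. The 3 called of 9 stand beside 1.16% of all genes tested. The summed astrocyte markers ran from 925 to 1037 in the controls and from 672 to 698 in Kcna1-dCas9A. *Aldoc*, a glycolytic enzyme of astrocytes, was at 170, 168 and 160, then at 117, 112 and 112. Of 12 oligodendrocyte lineage markers, 8 were tested, *Olig2* fell, 1 of 8 beside that 1.16%, the myelin genes *Mag*, *Mog* and *Mobp* and the early marker *Enpp6* were listed at 0, and the sums ran from 72 to 104, then from 47 to 51. At an unadjusted p under 0.05 (limma), 1 of these was higher and 5 were lower, beside 9.59% and 13.6% of all genes tested. Other members of that list lay on the other side. The myelin gene *Mbp* was at 3, 3 and 2, then at 7, 4 and 7. *Cnp* was at 6, 3 and 6, then at 7, 6 and 9, and neither passed. Of 10 microglia markers, 8 were tested and *C1qa* rose (9, 6 and 6, then 23, 22 and 24), 1 of 8 beside 1.16%. *P2ry12* and *Tmem119* were listed at 0, and the sums ran from 27 to 33, then from 59 to 83. At an unadjusted p under 0.05 (limma), 5 were higher and 0 lower, beside the same shares. *C1qc* lay on the other side, at 2, 2 and 1, then at 1, 2 and 1. *Ctss* overlapped, at 7, 5 and 4, then at 8, 3 and 6. Only 2 of the 8 had a mean of at least 10.

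Of 12 neuron markers, 0 passed in limma (3 higher and 5 lower at an unadjusted p under 0.05, beside 9.59% and 13.6% of all genes tested), and their sums ran from 4532 to 5252 in the controls and from 5592 to 6955 in Kcna1-dCas9A. That difference came from *Tubb3*, a neuronal tubulin, at 1862, 1752 and 2605, then at 3855, 3221 and 4591. Without it the other 11 summed to 2670, 2816 and 2647 in the controls and to 2389, 2371 and 2364 in Kcna1-dCas9A, lower in every library. The largest of these was *Map2*, at 1643, 1819 and 1614, then at 1442, 1466 and 1427. Not all of them fell. *Slc17a7*, at 33, 29 and 41, then at 47, 54 and 57, lay wholly higher. So did *Camk2a*, at 88, 93 and 124, then at 146, 145 and 175. Of 9 vascular and meningeal markers 0 passed (0 at an unadjusted p under 0.05), with sums from 14 to 19, then from 7 to 14. Of 8 cell cycle genes 0 passed (0 higher and 6 lower at an unadjusted p under 0.05, beside the same 9.59% and 13.6%), with sums from 112 to 117, then from 65 to 73. The part of these shifts in the values of *Hmgcs1*, *Insig1* and the other sterol genes was not tested. *Apoe*, which astrocytes and microglia both express, overlapped between the groups.

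The log2 differences also moved with the GC content of the transcript, taken over the longest protein-coding transcript of each gene, UTRs included where annotated. Over the 7738 genes with a mean of at least 10 and a GC value, the median went from -0.22 in the fifth of genes lowest in GC to 0.13 in the highest, and Spearman's rho across genes, which are not independent, was 0.259. Across the 22 synthesis genes with a value, rho was 0.448. *Mvd* has 59.3% GC, *Mvk* 59.4%, *Pmvk* 57.0% and *Fdps* 52.3%, whereas *Hsd17b7* has 43.9%, and *Hmgcs1* had no value. A correction for GC on genes with a mean of at least 10 was an alternative chosen after seeing the data. After it the log2 difference was 1.29 for *Mvd*, -0.48 for *Hsd17b7*, 0.41 for *Sqle* and -0.87 for *Insig1*. Their adjusted p in limma were 0.000494, 0.029, 0.022 and 0.045, in that order. Without the correction, limma on genes with a mean of at least 10 gave 0.000357, 0.00556, 0.088 and 0.026. In the GC-corrected fit *Pmvk* (0.82, adjusted p = 0.0034, limma) and *Fdps* (1.30, adjusted p = 0.0013) passed as well. There *Mvk* did not pass (0.40, adjusted p = 0.088), nor did *Cyp51* (0.32, adjusted p = 0.075), *Lss* (-0.14), *Dhcr7* (-0.18) or *Fdft1*, whose sign turned (0.04). The median of the 6 genes with a GC value was -0.13 before the correction and -0.051 after it.

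**Figure D5:**
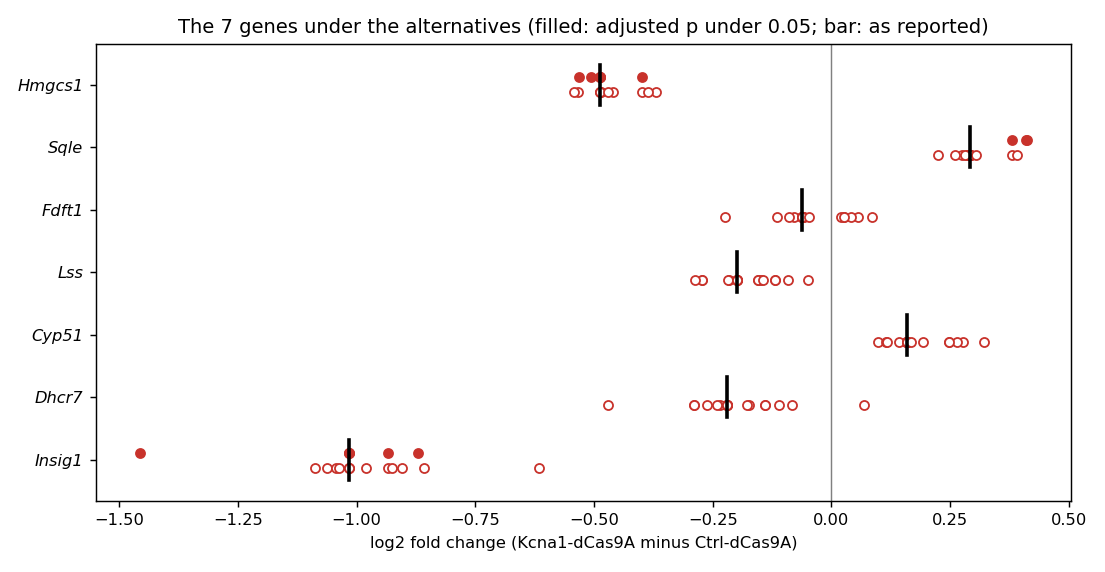
Log2 difference (Kcna1-dCas9A minus Ctrl-dCas9A) of each of the 7 genes under every alternative of filter, pseudocount, scaling, variance model and left-out library, with points filled where the adjusted p is under 0.05 and a bar at the reported value. *Hmgcs1* and *Insig1* stay below 0 and *Sqle* above 0 in all of them, while *Fdft1* and *Dhcr7* fall on both sides.

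The 7 genes did not share a profile over the 6 libraries. Each gene was centred on its own mean of log2(value + 1), and the root mean square difference from the mean profile of the 7 ran from 0.16 for *Hmgcs1* to 0.56 for *Insig1*, whose spread among the control libraries weighs most in that mean. Of 8043 other genes with a mean of at least 10, the 5 with the smallest difference from it were *Ptpn5* (0.0245), *Pitpna* (0.0301), *Arhgef7* (0.0355), *Utp6* (0.0359) and *Cct8* (0.0360). *Ptpn5*, a phosphatase of striatal and other forebrain neurons, was at 62, 55 and 49 in the controls and at 47, 48 and 44 in Kcna1-dCas9A. A likeness over 6 libraries is a description, and none of these 5 genes passed in limma, with 0 of 5 at an unadjusted p under 0.05.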

How the data were processed

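Values were taken from the 6 libraries as deposited, 3 per group, with groups and replicate numbers from the labels. The QuantSeq 3' libraries cover mainly one end of each transcript, so values were not divided by length. The submitters' processing notes name STAR 2.7, featureCounts, DESeq2 and mm10, whereas the study's methods name Bowtie2 and mm9. The annotation, the scaling and the use of strand are not given in the sources used here. The deposited score is a whole number per gene, treated as CPM rounded by the authors, since totals lie between 999047 and 999717 and the variance between replicates of genes with means from 4 to 8 was 0.698 and 0.499 times the mean, less than counts can give. This is not stated by the authors. Depth is therefore unknown, intervals and floors for counting error could not be computed, and edgeR and DESeq2, which need counts, were not run.

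The test was limma 3.58.1 in R 4.3.3 (lmFit, eBayes with an intensity trend) on log2(value + 1) for genes above 0 in at least 1 library, with group as the only factor and a Benjamini-Hochberg adjusted p of 0.05. It was tested on simulated data. For single genes an exact permutation test over the libraries was added. The 7 genes and all lists were chosen with earlier results of these data known, so no p was adjusted over a list and no list was tested. Named genes were the 7, *Kcna1*, *Srebf2*, *Apoe*, genes past the threshold in each list, the 2 highest and 2 lowest of each pathway list with a mean of at least 10, and the 5 genes nearest in profile. *Pmvk*, *Mvk*, *Ebp*, *Idi1*, *Srebf1*, *Mbp*, *Cnp*, *C1qc*, *Ctss*, *Tubb3*, *Map2*, *Slc17a7*, *Camk2a*, *Gfap*, *Aldh1l1*, *S100b*, genes listed at 0, overlapping genes and Gm42418 are exceptions to this rule, named with their values known. GC content came from the longest protein-coding transcript of each gene in GENCODE vM1 (NCBIM37), and covered 73.7% of the genes tested, so it was used only for genes with a mean of at least 10 (96.1%). Alternatives were other pseudocounts, low-value filters, scalings, variance models, the replicate block and each library left out. The GC correction and median-of-ratios scaling on genes with a mean of at least 10 were added after seeing the data. Some genes of the lists are counted but not reported here by name. *Erg28* and *Spring1* were matched to older symbols in the files through RefSeq synonyms.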

Additional observations from a re-analysis of the deposited data

How the results depend on the processing

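*Hmgcs1* and *Insig1* stayed lower and *Sqle* higher in all alternatives in which each had a value, and passed in 7 of 18, 6 of 19 and 3 of 19 of them. *Lss*, *Cyp51*, *Fdft1* and *Dhcr7* passed in 0 of 19, and *Fdft1* and *Dhcr7* kept their sign in 13 and 18. The cause of the following differences was not tested. A filter leaves fewer genes in the fit, and leaving out a library leaves fewer libraries.

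Over all genes the number past the threshold, 226 as reported, was 627 and 475 with pseudocounts of 0.1 and 5, 1543 and 2289 with a mean of at least 1 and 10, 2405 without a low-value filter, 1719 with median-of-ratios and 2058 with upper-quartile scaling, 1768 without Gm42418, 2884 with robust variance, 2050 with the GC correction and 2297 with median-of-ratios scaling on genes with a mean of at least 10. Without a filter, most residual variances were 0, which makes that fit unreliable. Among the 7 genes, 0 as reported became 1 with a mean of at least 1, with upper-quartile scaling and without Gm42418, 2 with a mean of at least 10, without a filter, with robust variance and with the GC correction, and 3 with median-of-ratios scaling on genes with a mean of at least 10. Among the other synthesis enzymes, 2 became 4 with a mean of at least 1 and without Gm42418, 6 without a filter and with either other scaling, 7 with robust variance and both added alternatives, 8 with a mean of at least 10, and 0 without the intensity trend.

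For sterol sensing, 0 became 1 with median-of-ratios scaling, 2 with a mean of at least 10 and upper-quartile scaling, 3 with a mean of at least 1, without Gm42418 and with the GC correction, 4 without a filter and with robust variance, and 5 with median-of-ratios scaling on genes with a mean of at least 10. In that last fit uptake and efflux each had 1. For fatty acid synthesis, 0 became 1 with either pseudocount, 3 with a mean of at least 1, 5 with the GC correction, 6 with both other scalings and without Gm42418, 8 without a filter and with median-of-ratios scaling on genes with a mean of at least 10, and 10 with a mean of at least 10 and with robust variance. With the GC correction the median was -0.0513 over the 6 of the 7 genes with a GC value, *Hmgcs1* having none, beside -0.13 over the same 6 without it.

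When 1 library at a time was left out, the ranges were 0 to 2711 over all genes, 0 to 2 of the 7 genes, 0 to 7 of the other synthesis enzymes, 0 to 3 of sterol sensing, 0 to 4 of fatty acid synthesis, and -0.26 to -0.08 for the median of the 7. The high end of the count over all genes is the fit without Ctrl-dCas9A replicate 3.

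With the replicate block 0 genes passed, both over all genes and among the other synthesis enzymes, and *Hmgcs1* had an adjusted p of 0.11. Deviations of same-numbered libraries correlated at 0.014, 0.114 and 0.154, so the numbers were not taken to pair the libraries. Each library correlated best with its own number apart from Ctrl-dCas9A replicate 1, nearest to Kcna1-dCas9A replicate 2 (0.0989). The rounding of values and the unknown depth limit what can be said of *Lss*, *Dhcr7* and *Insig1*, whose values lie nearest to 0 among the 7.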

Other observations

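Ratios within a library do not depend on its scaling. *Mvd* stood at 7.90, 7.94 and 15.3 percent of the value of *Hmgcs1* in the control libraries and at 34.2, 29.7 and 46.6 in Kcna1-dCas9A. *Fdps* stood at 1.44, 1.78 and 2.98 percent of *Hmgcs1* in the controls, then at 6.16, 5.08 and 9.45. In both ratios replicate 3 was the highest of its group, and Ctrl-dCas9A replicate 3 was the control nearest to the other group. These ratios were chosen after the values were seen and carry no test.

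Ctrl-dCas9A replicate 3 was the control library nearest to the mean of the Kcna1-dCas9A libraries for 17 of the 23 synthesis genes with a mean of at least 10 (73.9%), and for 59.5% of all 8050 genes at that level. What set this library apart was not tested.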
